A study of Mus musculus with 8 samples.

Results

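The 9 genes described here are 8 inflammatory chemokines, Ccl2, Ccl7, Ccl8, Ccl12, Ccl3, Ccl4, Cxcl1 and Cxcl2, and the receptor Ccr2. They were taken by symbol from the 32285 genes counted in single cells of subcutaneous white adipose tissue (sWAT), and all 9 were present in the files. Each gene was followed in adipocyte progenitors, macrophages, endothelial cells, T cells and NK cells, and compared between mice fed freely (Ad-Lib) and mice given their food in 2 nightly meals (TAN).

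Chemokines are small secreted proteins that draw leukocytes along a gradient. Ccl2, Ccl7, Ccl8 and Ccl12 belong to the monocyte chemoattractant group, and Ccr2 is the receptor through which Ccl2, Ccl7 and Ccl12 recruit monocytes from blood. Ccl3 and Ccl4, the macrophage inflammatory proteins, attract macrophages, T cells and NK cells. Cxcl1 and Cxcl2 are ligands of Cxcr2 and attract neutrophils. In adipose tissue these genes are best known from obesity, where stromal cells and macrophages make them and Ccr2 on monocytes takes part in macrophage accumulation.

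The mice are labelled C57BL/6 (C57BL/6J males in the methods), and no allele, transgene or drug is named for either group. TAN mice had food only in 2 short windows of the dark phase, and Ad-Lib mice ate at will. Their age is not certain, since it is labelled as 8 weeks while the methods describe older males after months on either schedule. Inguinal fat pads were digested with collagenase, the floating adipocytes were removed, and the remaining stromal vascular fraction was captured in droplets with 3′ barcoding (10x Genomics). There were 4 Ad-Lib libraries (replicates 1, 3, 5 and 7) and 4 TAN libraries (replicates 2, 4, 6 and 8). The labels do not tie libraries to animals, and the methods speak of 4 mice per group, which matches 1 mouse per library, but also of fewer samples than these 8, so the number of mice per library is not certain. The p-values then measure the spread between these libraries, which may be technical.

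The libraries held 25320800 to 37140950 unique molecular identifiers (UMIs, 1 per captured transcript), and 36370 of 44427 barcodes passed the study's limits on UMIs, genes and mitochondrial share. The median UMIs per kept cell ran from 5060 to 6560.5 in the Ad-Lib libraries and from 3925.5 to 5189 in the TAN libraries. Mitochondrial shares did not overlap, with library medians of 1.789% to 2.538% in Ad-Lib and 2.804% to 4.236% in TAN. Pairs of libraries shared 0.054% to 0.284% of their kept barcodes. Cells were gated by marker genes that included none of the 9 members, UMIs were summed per library and gate, and levels are given as CPM, UMIs of a gene per 1000000 UMIs of that gate and library. A gene was called changed at an edgeR quasi-likelihood adjusted p under 0.05 and at least 1.5-fold. With 4 libraries against 4, the smallest two-sided exact permutation p is 0.0286.

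The genes lie in 3 runs and 1 single position on build GRCm38. Ccl2 (ENSMUSG00000035385, chr11:82035571-82037453), Ccl7 (ENSMUSG00000035373, chr11:82045712-82047525), Ccl12 (ENSMUSG00000035352, chr11:82101845-82103400) and Ccl8 (ENSMUSG00000009185, chr11:82115185-82116799) stand on the plus strand within 81.2 kb that also holds Ccl11. Ccl3 (ENSMUSG00000000982, chr11:83647844-83649355, minus strand) and Ccl4 (ENSMUSG00000018930, chr11:83662584-83664683, plus strand) span 16.8 kb. Cxcl1 (ENSMUSG00000029380, chr5:90891241-90893115) and Cxcl2 (ENSMUSG00000058427, chr5:90903871-90905938) span 14.7 kb, and Ccr2 (ENSMUSG00000049103) lies at chr9:124101950-124113557. The annotated gene Gm17268 overlaps Ccl2. The longest run of bases shared by the transcripts of any pair of members was 23, for Ccl2 with Ccl7 and for Cxcl1 with Cxcl2.

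RefSeq promoters, 250 bases before to 50 after the start site on GRCm38.p6, were on hand for 6 of the 9 genes. Those of Cxcl1 and Cxcl2 are shown because these neighbours had different main sources, progenitors for Cxcl1 and macrophages for Cxcl2. Capitals mark the kB consensus, the recognition sequence of NF-kB, which both promoters hold (chr5:90890995-90891294 and chr5:90903649-90903948, both plus strand).
Cxcl1: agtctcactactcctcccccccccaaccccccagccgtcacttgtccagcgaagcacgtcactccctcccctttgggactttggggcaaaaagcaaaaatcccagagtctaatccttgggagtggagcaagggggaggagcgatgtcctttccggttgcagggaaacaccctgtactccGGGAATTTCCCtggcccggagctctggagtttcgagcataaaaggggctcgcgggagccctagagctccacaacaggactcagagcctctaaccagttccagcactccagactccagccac
Cxcl2: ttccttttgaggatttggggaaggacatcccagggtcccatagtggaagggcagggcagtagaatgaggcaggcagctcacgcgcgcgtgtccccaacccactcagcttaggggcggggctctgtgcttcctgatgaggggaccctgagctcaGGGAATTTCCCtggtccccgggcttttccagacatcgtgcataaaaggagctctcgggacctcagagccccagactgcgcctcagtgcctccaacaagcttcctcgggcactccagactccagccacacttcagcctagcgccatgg
In each of them the stretch matched the consensus on both strands as a pair of overlapping runs, GGGAATTTCC and GGAATTTCCC. The first base of the stretch stood at -71 from the start site in Cxcl1 and at -97 in Cxcl2. Of 32851 promoters of the same length, 4.51% held a match on either strand. The promoters of Ccl8 (chr11:82114935-82115234, plus strand) and Ccl12 (chr11:82101595-82101894, plus strand) are shown because these neighbours rose in different cells. Capitals mark TATAAA.
Ccl8: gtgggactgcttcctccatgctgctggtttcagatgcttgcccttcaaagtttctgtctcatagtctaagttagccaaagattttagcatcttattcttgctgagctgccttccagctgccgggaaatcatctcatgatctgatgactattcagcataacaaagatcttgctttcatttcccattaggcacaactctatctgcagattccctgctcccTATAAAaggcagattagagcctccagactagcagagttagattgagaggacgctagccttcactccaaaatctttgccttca
Ccl12: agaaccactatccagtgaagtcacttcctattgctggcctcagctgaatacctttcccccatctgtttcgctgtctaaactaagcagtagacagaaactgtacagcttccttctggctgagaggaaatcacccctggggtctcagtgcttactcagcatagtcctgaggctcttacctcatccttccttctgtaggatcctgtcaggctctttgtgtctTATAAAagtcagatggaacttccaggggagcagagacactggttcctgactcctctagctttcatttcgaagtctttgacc
TATAAA began at -32 in Ccl8 and at -31 in Ccl12, and 13.62% of the promoters held it on either strand. The Ccl3 and Ccr2 promoters matched neither motif. A search of all 6 for TGANTCA, held by 7.81% of promoters, gave no match in this window.

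Each gene had its own distribution over cell types. Ccl8 was the most restricted, with 81.1% of its UMIs in Lyve1+ macrophages, which made up 7.32% of the cells. Ccl12 was divided between the Lyve1-low gate with 48.3% and the Lyve1+ gate with 45.1%. Cxcl2 followed macrophages too, with 47.4% of its UMIs in Lyve1-low and 33.0% in Lyve1+ cells. Cxcl1 was stromal: Dpp4+ progenitors held 35.8% of its UMIs, Icam1+ progenitors 28.4% and F3+ progenitors 11.5%. Ccl2 and Ccl7 crossed lineages, with 42.7% and 45.0% of their UMIs in Lyve1+ macrophages, 24.7% and 18.6% in Lyve1-low macrophages, and 14.9% and 14.6% in Dpp4+ progenitors. Ccl3 lay in Lyve1-low macrophages with 47.9%, in Lyve1+ macrophages with 24.0% and in ungated cells with 12.4%. Ccl4 was spread over Lyve1-low macrophages with 30.8%, cells in no gate with 20.3%, T cells with 15.2%, Lyve1+ macrophages with 11.5% and NK cells with 10.7%. Ccr2 UMIs came from Lyve1-low macrophages at 34.2%, and another 29.5% lay in cells that no gate took.

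**Figure D1:**
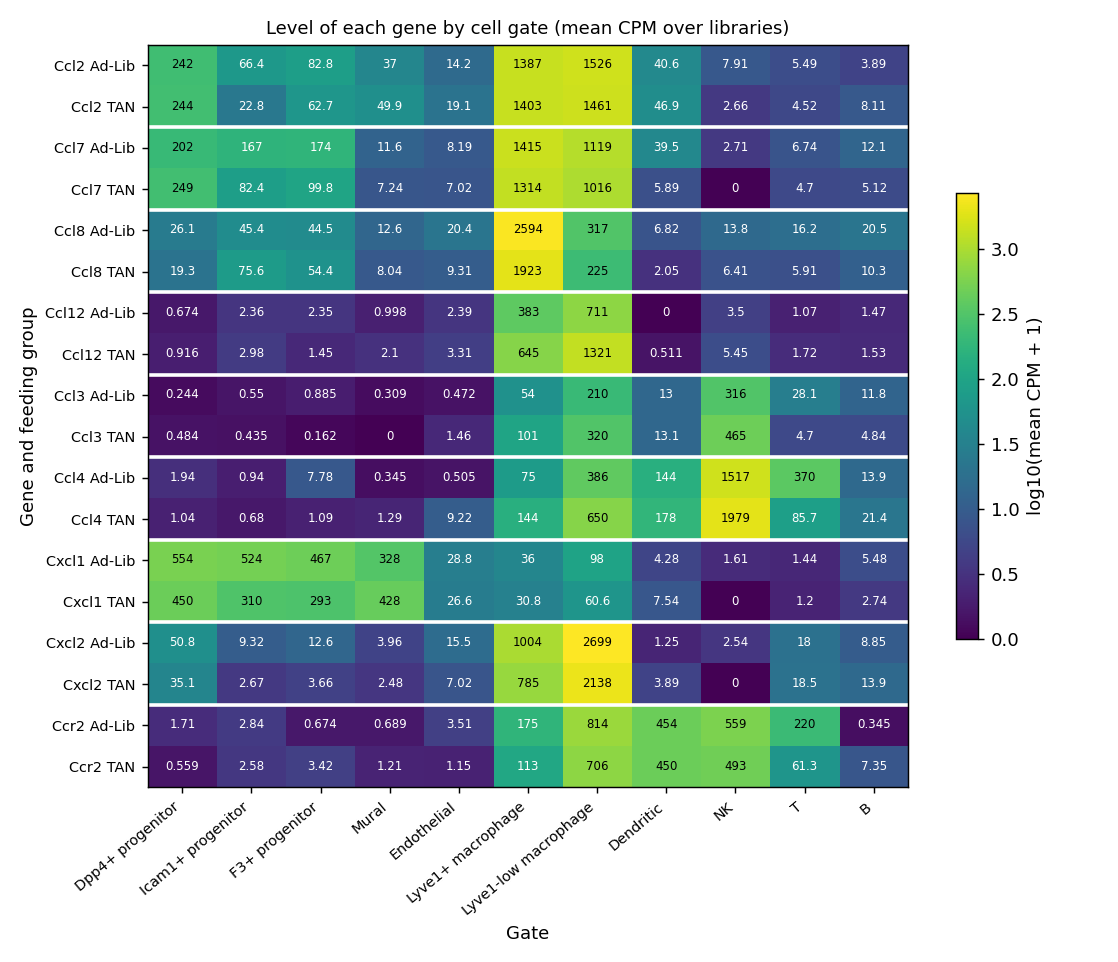
Mean level over libraries of each gene (rows, Ad-Lib above TAN) in 11 cell gates (columns), printed in CPM and coloured by log10(mean CPM + 1). Cxcl1 is highest in the progenitor and mural gates, Ccl8 in Lyve1+ macrophages, Cxcl2 in Lyve1-low macrophages and Ccl4 in NK cells, and the B gate at the right shows the low level found in cells that are not a known source of most of these genes.

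Levels in the B gate served as background, since free RNA gives every droplet some transcripts. There Ccl8 stood at 20.5 and 10.3 CPM in Ad-Lib and TAN, Ccl2 at 3.89 and 8.11 CPM, Cxcl1 at 5.48 and 2.74 CPM, and Ccr2 at 0.345 and 7.35 CPM. The Ccl8 level of endothelial cells, 20.4 and 9.31 CPM, and of T cells, 16.2 and 5.91 CPM, was at or below that of B cells and is read as background.

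The pattern of a gene over gates and libraries was compared with that of all 10925 genes of at least 5 CPM, over 125 points from 18 gates. These points share libraries and cells of one lineage, so the correlations of log2(CPM + 1) describe them and carry no test. Ccl2 was most like its neighbour Ccl7 (Pearson r = 0.79), then Slc7a8 and Glud1, and Ccl7 was most like Itga9 (r = 0.81). Ccl8 followed C1qc, a complement gene of macrophages (r = 0.80), and Ccl12 followed C3ar1, the C3a receptor (r = 0.92). Ccl3 was nearest to Itgam (r = 0.81) and Ccl4 to Cyth4 (r = 0.83). Cxcl1 followed matrix genes of fibroblasts, Pcolce (r = 0.89), Ddr2 and C1qtnf1. Its neighbour Cxcl2 was nearest to C5ar2 (r = 0.83), and the correlation between Cxcl1 and Cxcl2 was 0.046. Among the genes most like Ccr2 was Ms4a6c (r = 0.85).

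Adipocyte progenitors are the fibroblast-like cells from which new fat cells form. They were divided into Dpp4+ cells, taken as the earliest stage, Icam1+ cells committed to the adipocyte lineage, and F3+ cells, a class reported to restrain adipogenesis. In the Icam1+ gate (3195 cells), 3 of the 5 members that passed the count filter were called, against 1.51% of all 10838 genes tested. Cxcl1 and Ccl2 fell in TAN and Ccl8 rose. The median change of the 5 was -1.07 on the log2 scale, beside 0.0049 over all genes.

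Cxcl1 was 466.3, 591.9, 397.4 and 640.0 CPM in Ad-Lib replicates 1, 3, 5 and 7, and 252.8, 313.0, 304.4 and 369.5 CPM in TAN replicates 2, 4, 6 and 8. The groups did not overlap, and every TAN library lay below the lowest Ad-Lib library. The mean went from 523.9 ± 112 to 309.9 ± 47.8 CPM (SD, n = 4), and the log2 change was -0.80 with an SE of 0.14 (edgeR adjusted p = 0.00725; later values after ± beside a log2 change are SEs, and those beside a level or share are SDs with n = 4). The share of cells with at least 1 Cxcl1 UMI, each cell thinned to 2000 UMIs, went from 40.3% ± 5.92 to 26.4% ± 3.72 (exact permutation p = 0.0286; 1806 of 1854 and 1166 of 1341 cells were deep enough). Without thinning these shares were 60.4% and 40.9%, and in B cells thinned alike they were 1.12% and 0.594%. Leaving out any 1 library kept the call, with adjusted p up to 0.0401, but with stricter gates the change was -0.54 (adjusted p = 0.0427), under 1.5-fold.

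Ccl8, a macrophage gene by its distribution, rose in the Icam1+ gate. Its level was 46.84, 48.92, 35.47 and 50.21 CPM in the Ad-Lib libraries and 93.61, 62.81, 71.4 and 74.7 CPM in the TAN libraries, again with no overlap. The mean rose from 45.4 ± 6.74 to 75.6 ± 12.99 CPM, a log2 change of 0.71 ± 0.15 (edgeR adjusted p = 0.0171). Thinned to 2000 UMIs, the share with a Ccl8 UMI was 7.47% ± 0.874 in Ad-Lib libraries and 11.9% ± 1.32 in TAN libraries (exact permutation p = 0.0286), compared with 4.07% and 1.99% of B cells, whose median depth was 3458 UMIs against 10418. Without thinning the Icam1+ shares were 25.5% and 31.7% (exact permutation p = 0.143). The 8 macrophage markers in the same sums overlapped between groups, at 28.9 to 70.8 CPM in the Ad-Lib and 20.02 to 81.7 CPM in the TAN libraries. Of the 8, 1 was higher in TAN, and none was at 0. The 7 markers of Lyve1+ macrophages summed to 252.4 and 227.1 CPM. Mural markers rose, from 83.8 to 96.4 CPM over the Ad-Lib libraries to 97.96 to 120.5 CPM over the TAN libraries (exact permutation p = 0.0286). The part of the macrophage and mural markers in the Ccl8 result was not tested. Ccl8 in mural cells themselves stood at 12.6 and 8.04 CPM. Without TAN replicate 2 the change was 0.56 (adjusted p = 0.0673).

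Ccl2 was 64.77, 91.06, 18.93 and 90.82 CPM in the Ad-Lib and 16.75, 30.02, 17.85 and 26.74 CPM in the TAN libraries. Ad-Lib replicate 5 lay inside the TAN range and the other 3 Ad-Lib libraries above it. The mean went from 66.4 ± 34.0 to 22.8 ± 6.55 CPM, a log2 change of -1.57 ± 0.37 (edgeR adjusted p = 0.0364). DESeq2 did not call it (adjusted p = 0.0751), nor did edgeR with stricter gates (adjusted p = 0.113), and the edgeR call was lost when any library other than Ad-Lib replicate 5 was left out (adjusted p 0.0555 to 0.135), and without Ad-Lib replicate 5 the change was -1.89 (adjusted p = 0.000148).

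Ccl7 resembled Ccl2. It stood at 199.0, 220.9, 60.06 and 189.8 CPM in the Ad-Lib and at 74.12, 100.4, 83.15 and 71.8 CPM in the TAN libraries, and Ad-Lib replicate 5 was the lowest of all 8 libraries. The change of -1.07 ± 0.30 did not pass (adjusted p = 0.0709), and passed without Ad-Lib replicate 5 (-1.37, adjusted p = 0.000148). Cxcl2 was low, with a mean of 9.32 CPM in the Ad-Lib and 2.67 CPM in the TAN libraries, and did not pass (adjusted p = 0.112). Ccl12, Ccl3, Ccl4 and Ccr2 were below the filter, at means of 0.435 to 2.98 CPM in either group, with exact permutation p from 0.629 to 0.8.

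**Figure D2:**
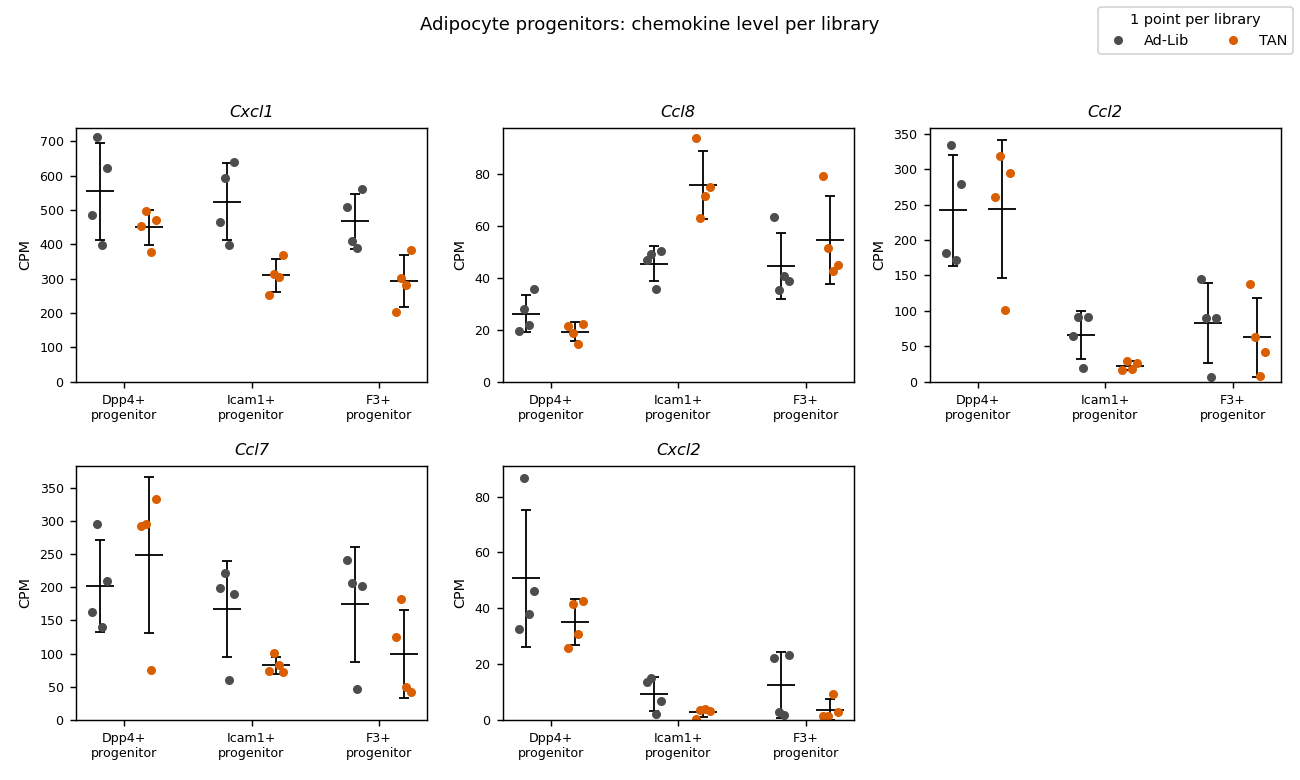
Level in CPM of the 5 chemokines measured in progenitors, 1 point per library, with the mean and SD of each group (horizontal bar and whiskers) in the Dpp4+, Icam1+ and F3+ gates. In the Icam1+ gate the TAN libraries sit below all Ad-Lib libraries for Cxcl1 (252.8 to 369.5 against 397.4 to 640.0 CPM) and above them for Ccl8, while Ad-Lib replicate 5 is a low point for Ccl2 and Ccl7.

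Beside the 1.51% of all genes called in the Icam1+ gate, the listed genes gave these counts. Of the 18 NF-kB response genes listed, 15 were tested, 12 were lower in TAN and 3 were called, all down. These were Nfkbiz, an atypical inhibitor and co-regulator of NF-kB (-1.03, adjusted p = 0.000104), Ptgs2, the inducible cyclooxygenase (-1.84, adjusted p = 0.00532), and Birc3, a ubiquitin ligase of the pathway (-0.75, adjusted p = 0.00532). Among 19 immediate early genes, which also respond to enzymatic dissociation, all were lower in TAN and 6 were called, among them Fosb (-0.65, adjusted p = 0.00151), Klf4 (-0.70, adjusted p = 0.0059) and Egr1 (-0.59, adjusted p = 0.00702). Their summed level ran from 31930 to 40900 CPM in the Ad-Lib and from 24470 to 29050 CPM in the TAN libraries. The part of this difference in the Cxcl1 and Ccl2 results was not tested. None of 10 other chemokine ligands tested was called, with Cxcl14 at -0.32 (adjusted p = 0.309) and Ccl11 at 0.05 (adjusted p = 0.86), nor any of 4 receptors and decoys.

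The Icam1+ gate itself used 3 lipid genes, Cd36, Fabp4 and Lpl, whose sum rose from 2286 to 3737 CPM in TAN (exact permutation p = 0.0286). With those 3 genes left out of the gate, an alternative chosen after seeing the data, Cxcl1 was at -0.81 (adjusted p = 0.0069), Ccl8 at 0.61 (adjusted p = 0.0208) and Ccl2 at -1.38 (adjusted p = 0.0742).

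In Dpp4+ progenitors (3993 cells) none of the 5 members tested was called, beside 0.528% of all genes. Of 1181 genes at an unadjusted p under 0.05, none was a member, and DESeq2 called no member either. Cxcl1 stood at 484.1, 713.5, 396.7 and 622.1 CPM in the Ad-Lib and at 454.4, 497.5, 377.8 and 470.3 CPM in the TAN libraries, with overlapping groups and a change of -0.31 ± 0.16 (adjusted p = 0.518). Ccl2 averaged 241.9 ± 78.6 and 243.7 ± 97.9 CPM, Ccl7 202.1 ± 69.0 and 249.1 ± 118 CPM, and Cxcl2 50.8 ± 24.6 and 35.1 ± 8.35 CPM. Ccl8 averaged 26.1 ± 7.13 and 19.3 ± 3.51 CPM, compared with 20.5 and 10.3 CPM in B cells. Ccl12, Ccl3, Ccl4 and Ccr2 were below the filter, under 2 CPM in both groups.

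Whether the feeding difference itself differed between the Icam1+ and Dpp4+ gates was tested with limma on the difference within each library, where 1.02% of 10158 genes passed. For Ccl8 the change in the Icam1+ gate exceeded that in the Dpp4+ gate by 1.12 on the log2(CPM + 1) scale (95% interval 0.77 to 1.48, limma adjusted p = 0.00423). Ccl2 differed by -1.26 (interval -1.92 to -0.60, adjusted p = 0.0662) and Cxcl1 by -0.47 (interval -0.70 to -0.24, adjusted p = 0.0512), and both missed the threshold. With a pseudocount of 10 CPM, Cxcl1 passed (adjusted p = 0.0396).

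In F3+ progenitors (1611 cells) none of 4 members tested was called, beside 0.127% of all genes. Cxcl1 was 508.1, 408.6, 390.4 and 560.2 CPM in the Ad-Lib and 203.2, 303.3, 282.5 and 384.1 CPM in the TAN libraries, so that the groups did not overlap. Its change of -0.72 ± 0.17 had an edgeR adjusted p of 0.142 and a DESeq2 adjusted p of 0.0209. Ccl2 in this gate spread widely within each group, from 6.51 to 144.5 CPM in the Ad-Lib and from 7.59 to 138.5 CPM in the TAN libraries, and Ad-Lib replicate 5 and TAN replicate 6 were the low ones. Ccl7 was at -0.86 ± 0.45 (adjusted p = 0.619) and Ccl8 at 0.28 ± 0.23 (adjusted p = 0.797). Cxcl2, below the filter, averaged 12.6 and 3.66 CPM (exact permutation p = 0.229), and Ccl12, Ccl3, Ccl4 and Ccr2 had means of 0.162 to 7.78 CPM. With all progenitors summed as 1 gate, none of 8 members was called, beside 0.426% of all genes, and Cxcl1 was at -0.59 (adjusted p = 0.0991).

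Within progenitors the genes were found together to different extents, counted in cells thinned to 2000 UMIs and pooled over libraries, as a description. Among Dpp4+ cells with a Ccl2 UMI, 44.4% also had Ccl7 and 65.1% had Cxcl1, compared with 12.7% and 30.0% of those without. Cxcl1 was found in 34.8% of Icam1+ cells with Ccl8 and 35.2% of those without, in 32.4% and 35.3% of Dpp4+ cells, and in 40.2% and 31.5% of F3+ cells.

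Macrophages were divided by Lyve1 and its associated genes. Lyve1+ cells are the tissue-resident, perivascular kind, and the Lyve1-low gate was led by Lyz1, Fn1, Ear2 and Il1b, genes of macrophages and monocyte-derived cells. The 8 macrophage markers summed to 10070 and 10440 CPM in it, compared with 13620 and 13260 CPM in the Lyve1+ gate. Of 4144 macrophages, 1012 lay within 0.1 of the score that divides the gates, so the gates are ranges and not separate types. In Lyve1-low macrophages (1481 cells), all 9 members passed the filter and 3 were called, all higher in TAN, beside 0.826% of all 7747 genes. These were Ccl4, Ccl12 and Ccl3. The other 6 members had changes below 0, and the median of the 9 was -0.14.

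Ccl4 was 339.4, 377.6, 391.4 and 433.6 CPM in the Ad-Lib and 735.1, 638.9, 537.1 and 690.9 CPM in the TAN libraries. The groups did not overlap. The mean rose from 385.5 ± 38.9 to 650.5 ± 85.2 CPM, a log2 change of 0.78 ± 0.12 (edgeR adjusted p = 0.00206), and the call held with any 1 library left out (adjusted p up to 0.0140). Cells with a Ccl4 UMI at 2000 UMIs went from 15.96% ± 2.86 to 28.1% ± 0.939 (exact permutation p = 0.0286; 654 of 832 and 488 of 649 cells; 19.3% and 29.3% without thinning), compared with 1.69% and 1.96% of B cells, whose median depth was 3458 UMIs against 5755.

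Ccl12 was 529.7, 672.0, 488.8 and 1153 CPM in the Ad-Lib and 1418, 1458, 1485 and 920.9 CPM in the TAN libraries. Ad-Lib replicate 7 was above TAN replicate 8, and the other libraries were separated by group. The mean rose from 710.9 ± 305 to 1321 ± 268 CPM (0.93 ± 0.20, adjusted p = 0.0233), with 31.5% and 45.7% of cells positive at 2000 UMIs (exact permutation p = 0.0857; 37.6% and 48.2% without thinning). DESeq2 did not call it (adjusted p = 0.143), and the edgeR call was lost without Ad-Lib replicate 1 (0.0692) or 3 (0.0562) and without TAN replicate 2 (0.0783) or 4 (0.123).

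Ccl3, which stands beside Ccl4 on the chromosome, was 226.5, 214.7, 168.6 and 229.5 CPM in the Ad-Lib and 323.7, 352.0, 221.7 and 380.5 CPM in the TAN libraries. TAN replicate 6 lay inside the Ad-Lib range. The log2 change was 0.64 ± 0.15 (adjusted p = 0.0473), just past the threshold, and only the fit without TAN replicate 6 kept the call when 1 library was left out (adjusted p = 0.00274, the others 0.0593 to 0.18). It was also lost with a mitochondrial limit of 20% (adjusted p = 0.0509) and with cells of 2000 to 20000 UMIs (adjusted p = 0.0654). At 2000 UMIs, 57.0% of the Lyve1-low cells with Ccl3 also had Ccl4, compared with 12.7% of those without.

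The 6 remaining members were not called in Lyve1-low cells. Ccl2 averaged 1526 ± 289 and 1461 ± 165 CPM and Ccl7 1119 ± 324 and 1016 ± 113 CPM, with changes of -0.05 and -0.14. Cxcl2, the neutrophil attractant, averaged 2699 ± 348 and 2138 ± 426 CPM (-0.33 ± 0.12, adjusted p = 0.214). Cxcl1 averaged 98.0 ± 23.9 and 60.6 ± 18.4 CPM (-0.67 ± 0.18, adjusted p = 0.0746). Ccl8 averaged 316.8 ± 128 and 225.4 ± 56.8 CPM, and Ccr2 813.8 ± 166 and 706.3 ± 132 CPM (-0.20 ± 0.13, adjusted p = 0.547).

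**Figure D3:**
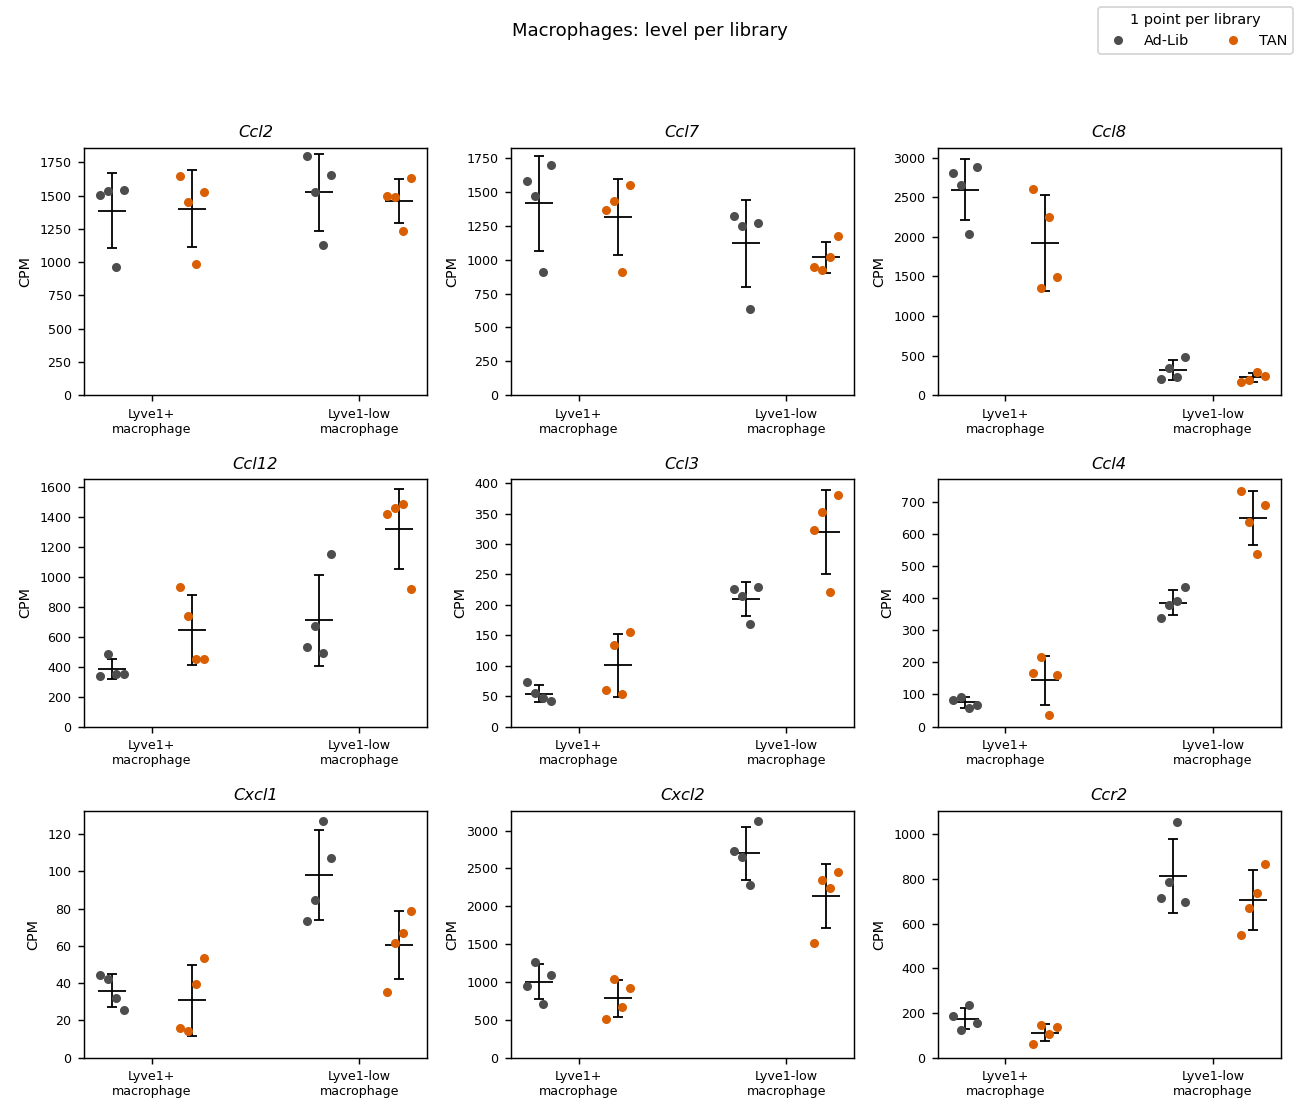
Level in CPM of all 9 genes in Lyve1+ and Lyve1-low macrophages, 1 point per library, with group mean and SD. The TAN libraries lie above all Ad-Lib libraries for Ccl4 in Lyve1-low cells (537.1 to 735.1 against 339.4 to 433.6 CPM), and the groups overlap for Ccl2 and Ccl7 in both gates.

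Other listed genes in Lyve1-low macrophages did not share the rise. Of 8 other chemokine ligands tested, Ccl24, an eosinophil attractant (-0.69, adjusted p = 0.0188), and Cxcl10, an interferon-induced ligand of Cxcr3 (-1.67, adjusted p = 0.0237), were called down. Among the NF-kB genes 13 of 15 were lower, and Rel, a subunit of NF-kB, was called down (-0.69, adjusted p = 0.00666). Of the immediate early genes 14 of 19 were lower, with Klf4 down (-0.81, adjusted p = 0.00623) and Hspa1a, a heat shock gene, up (0.66, adjusted p = 0.044). Their sum ran from 32620 to 43260 CPM in the Ad-Lib and from 27310 to 31890 CPM in the TAN libraries, and its part in the 3 calls was not tested. Summed marker levels of monocytes (47.2 to 107.2 and 21.5 to 84.1 CPM), neutrophils (103.3 to 176.8 and 112.6 to 202.8 CPM) and NK cells (0.94 to 17.8 and 0 to 5.73 CPM) overlapped between Ad-Lib and TAN, whereas those of ILC2 did not (56.8 to 64.9 and 37.1 to 55.2 CPM, with 4 of the 7 markers at 0 in every library). The part of the ILC2 markers in the calls was not tested.

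In Lyve1+ macrophages (2663 cells) none of 9 members was called, beside 0.298% of all 9072 genes, and 991 genes had an unadjusted p under 0.05. Ccl12, Ccl3, Ccl4 and Ccr2 were among those 991 and so was Ccl8, but after adjustment none passed. DESeq2 called none of the 9 either. Ccl12 was 340.5, 484.6, 353.1 and 354.5 CPM in the Ad-Lib and 934.8, 741.5, 454.1 and 451.2 CPM in the TAN libraries (0.76 ± 0.22, adjusted p = 0.138). Ccl4 was 83.42, 91.89, 56.31 and 68.43 CPM in the Ad-Lib and 166.1, 216.0, 35.53 and 159.8 CPM in the TAN libraries, with TAN replicate 6 below every Ad-Lib library (0.96 ± 0.30, adjusted p = 0.197). Without that library the Ccl4 change was 1.28 (adjusted p = 0.00196). Ccl3 averaged 54.1 ± 13.6 and 100.7 ± 51.5 CPM (0.85 ± 0.26, adjusted p = 0.173).

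Ccl8 in its main source, the Lyve1+ gate, was 2810, 2657, 2033 and 2875 CPM in the Ad-Lib and 2609, 1349, 2246 and 1488 CPM in the TAN libraries. The groups overlapped, and the change of -0.45 ± 0.18 did not pass (adjusted p = 0.327). Ccl2 averaged 1387 ± 281 and 1403 ± 287 CPM, and Ccl7 1415 ± 350 and 1314 ± 279 CPM. Ccr2 averaged 175.3 ± 47.9 and 112.8 ± 39.0 CPM (-0.67 ± 0.19, adjusted p = 0.142), Cxcl2 1004 ± 233 and 784.7 ± 240 CPM, and Cxcl1 36.1 ± 8.90 and 30.8 ± 18.9 CPM.

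The feeding difference was not shown to differ between the macrophage gates for any of the 9 members, in a limma test that passed none of 9419 genes (percent called 0). For Ccl4 the Lyve1+ change minus the Lyve1-low change was -0.06 on the log2(CPM + 1) scale (95% interval -0.68 to 0.57), for Ccl12 -0.26 (-0.70 to 0.18) and for Ccl3 0.18 (-0.24 to 0.60). Ccr2 differed by -0.47 (-0.80 to -0.13, adjusted p = 0.601). With both macrophage gates summed, an alternative chosen after seeing the data, 0.583% of genes were called, and among them were Ccl4 (1.03, adjusted p = 0.0147), Ccl12 (0.94, adjusted p = 0.0295) and Ccl3 (0.89, adjusted p = 0.0418). The Lyve1+ gate made up 9.95% ± 2.24 of Ad-Lib and 4.996% ± 1.26 of TAN cells (exact permutation p = 0.0286), so the summed gate also held a different mixture of both kinds.

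Co-detection with Ccr2 was counted in macrophages in the same way, as a description with no test. At 2000 UMIs, 7.94% of Lyve1+ cells with Ccl8 had Ccr2, compared with 21.1% of those without, and in the Lyve1-low gate these shares were 26.7% and 51.6%. Other members gave other values: Ccr2 was found in 13.1% of Lyve1+ cells with Ccl2 and 12.5% of those without, and in 50.3% of Lyve1-low cells with Cxcl2 and 43.8% of those without. Ccl2 and Ccl7 were found in the same cells, since 75.8% of Lyve1+ cells with Ccl2 had Ccl7, compared with 35.1% of the rest. In the Lyve1-low gate 88.9% of cells with Cxcl1 had Cxcl2, compared with 54.9% of cells without.

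Ccl2 and Ccl7 also moved together by library, across cell types. Ad-Lib replicate 5 had the lowest Ccl2 and the lowest Ccl7 of the Ad-Lib libraries in all 5 progenitor and macrophage gates, and TAN replicate 6 had the lowest Ccl2 of the TAN libraries in all but the Icam1+ gate. In Lyve1+ macrophages these libraries stood at 966.7 and 990.0 CPM of Ccl2, while the other 6 lay between 1453 and 1647 CPM. In F3+ progenitors they stood at 6.51 and 7.59 CPM, while the other 6 lay between 41.9 and 144.5 CPM. One of the low libraries is from each feeding group.

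In endothelial cells (8139 cells) none of 6 members tested was called, beside 2.13% of all genes. Of 1957 genes with an unadjusted p under 0.05, Ccl8 and Cxcl2 were members, and DESeq2 called no member. Cxcl1 averaged 28.8 ± 8.19 CPM in the Ad-Lib and 26.6 ± 13.8 CPM in the TAN libraries (-0.09 ± 0.31). Cxcl2 averaged 15.5 ± 8.45 and 7.02 ± 6.00 CPM (-1.19 ± 0.48, adjusted p = 0.2), and in B cells it stood at 8.85 and 13.9 CPM. Ccl2 ranged from 9.74 to 18.5 CPM in Ad-Lib, and in TAN from 4.50 to 52.2 CPM with TAN replicate 8 the high one. Ccl7 averaged 8.19 and 7.02 CPM and Ccl12 2.39 and 3.31 CPM. Ccl3, Ccl4 and Ccr2 were below the filter, and Ccl4 averaged 0.505 and 9.22 CPM (exact permutation p = 0.0857).

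T cells (3900 cells) were 4.25% ± 3.40 of Ad-Lib and 15.5% ± 9.93 of TAN cells (exact permutation p = 0.0571). In this gate 1 of 7 members tested was called, beside 1.91% of all 8731 genes, and it was the receptor Ccr2. All 7 had changes below 0, with a median of -1.24, beside -0.00088 over all genes. That median is the change of Ccl8, which with Ccl2 and Ccl7 lay at the B cell level in this gate. Ccr2 was 300.2, 103.6, 231.8 and 242.9 CPM in the Ad-Lib and 87.43, 33.09, 31.01 and 93.52 CPM in the TAN libraries. Every TAN library was below every Ad-Lib library. The mean went from 219.6 ± 82.9 to 61.3 ± 33.8 CPM, a log2 change of -1.73 ± 0.36 (edgeR adjusted p = 0.034), and at 2000 UMIs the share of positive cells went from 26.5% ± 9.73 to 6.92% ± 3.71 (exact permutation p = 0.0286; 763 of 773 and 2982 of 3127 cells). Without thinning the shares were 40.5% and 11.3%, and in thinned B cells 0.048% and 0.188%. The call was lost without Ad-Lib replicate 1, 5 or 7 or TAN replicate 4 or 6 (adjusted p 0.102 to 0.12). Calls over all genes of this gate moved as far, from 2 without TAN replicate 6 to 948 without Ad-Lib replicate 3.

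Ccl4 and Ccl3 just missed the threshold in T cells. Ccl4 was 277.4, 139.6, 544.3 and 519.6 CPM in the Ad-Lib and 203.0, 38.06, 41.41 and 60.09 CPM in the TAN libraries, with TAN replicate 2 inside the Ad-Lib range (-1.99 ± 0.50, adjusted p = 0.0544). Ccl3 averaged 28.1 ± 20.7 and 4.70 ± 3.26 CPM (-2.28 ± 0.55, adjusted p = 0.0501). At 2000 UMIs, 21 of the 26 T cells with Ccl3 also had Ccl4. Cxcl2 averaged 18.0 ± 5.95 and 18.5 ± 32.3 CPM, and the TAN value came from replicate 8 with 66.9 CPM. Without that library the Cxcl2 change was -2.56 and passed (adjusted p = 0.0259), compared with -0.25 over all 8. Ccl8 was called in T cells by DESeq2 (adjusted p = 0.0287) but lay at the B cell level, as did Ccl2 with 5.49 and 4.52 CPM and Ccl7 with 6.74 and 4.70 CPM. DESeq2 also called Ccl3 (adjusted p = 0.00183). Ccl12 and Cxcl1 were below the filter, at 1.07 to 1.72 CPM.

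The makeup of the T gate differed between the groups. The 6 naive T cell genes listed summed to 614.3 ± 349 CPM in the Ad-Lib and 1399 ± 170 CPM in the TAN libraries, and the 10 effector and resident genes to 2689 ± 565 and 1281 ± 360 CPM (exact permutation p = 0.0286 for each). NK markers in the gate summed to 114.9 to 240.6 and 62.3 to 138.7 CPM, monocyte markers to 454.0 to 652.6 and 312.6 to 364.9 CPM, and dendritic markers to 31.5 to 83.6 and 10.7 to 23.9 CPM. Endothelial markers moved the other way, from 32.3 to 56.7 CPM in the Ad-Lib and from 58.9 to 97.6 CPM in the TAN libraries (exact permutation p = 0.0286). The part of these markers in the Ccr2 result was not tested, and the T gate's makeup and the Ccr2 level of each kind of T cell cannot be told apart in its sum. All 6 naive genes were higher in TAN, 1 of them called (S1pr1, the egress receptor, 1.17, adjusted p = 0.0354), and 4 of the 10 effector genes were called down, with Gzma, a granzyme, at -4.26 (adjusted p = 0.00152). Other receptors fell with Ccr2: Cxcr3 (-1.53, adjusted p = 0.0158) and Cx3cr1 (-2.66, adjusted p = 0.049) were both called down. Among the immediate early genes 5 of 17 were called down, with Atf3 at -1.47 (adjusted p = 0.034), and of 13 NF-kB genes Csf1, a macrophage growth factor, was called down (-2.10, adjusted p = 0.029). Ccl5, a chemokine of effector T cells, fell from 3784 to 1272 CPM (-1.42, adjusted p = 0.0354).

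T cells were therefore also taken apart by the naive genes. In T cells without naive genes (404 and 660 cells), Ccr2 averaged 287.8 CPM in the Ad-Lib and 198.8 CPM in the TAN libraries (-0.52 ± 0.20, adjusted p = 0.431), and 33.7% ± 3.91 and 21.5% ± 6.39 of cells were positive at 2000 UMIs (exact permutation p = 0.0286; 398 and 568 cells; 50.2% and 31.3% without thinning). In T cells with naive genes (369 and 2467 cells), Ccr2 averaged 122.9 and 22.6 CPM (-1.85 ± 0.39, adjusted p = 0.0566). Ccl4 averaged 518.3 and 224.9 CPM without naive genes (adjusted p = 0.256) and 155.8 and 41.0 CPM with them (adjusted p = 0.486). None of 2 members tested was called without naive genes, beside 7 of 5627 genes, and none of 4 with them, beside 15 of 7858 genes. With so few genes called, these counts say little about the members.

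**Figure D4:**
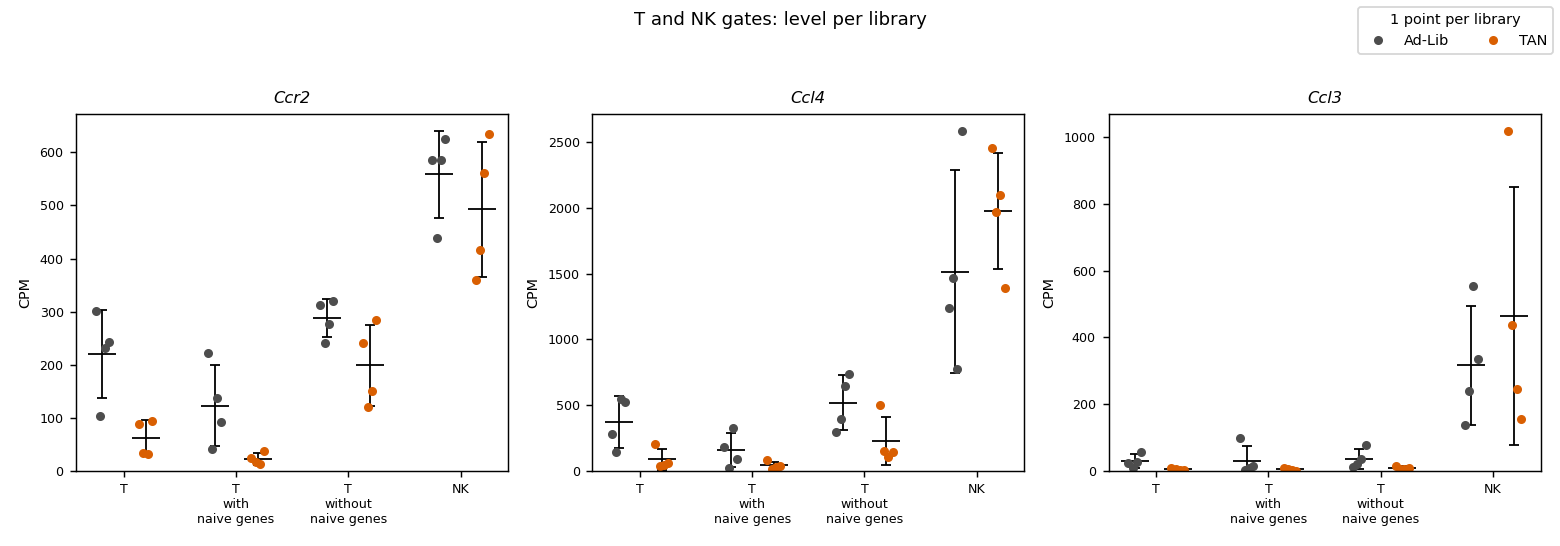
Level in CPM of Ccr2, Ccl4 and Ccl3 in all T cells, in T cells with and without naive genes, and in NK cells, 1 point per library with group mean and SD. Ccr2 in all T cells is 103.6 to 300.2 CPM in the Ad-Lib and 31.01 to 93.52 CPM in the TAN libraries, and in NK cells the groups overlap for all 3 genes.

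NK cells (174 cells) had the highest Ccl4 of the gates compared, and none of 3 members tested was called there, beside 0.0712% of 1404 genes. Ccl4 was 1236, 1469, 773.5 and 2589 CPM in the Ad-Lib and 2458, 1971, 2096 and 1393 CPM in the TAN libraries (0.39 ± 0.22, adjusted p = 0.856). Ccl3 averaged 316.1 ± 178 and 464.6 ± 388 CPM and Ccr2 559.1 ± 82.2 and 493.0 ± 127 CPM. Of 90 genes with an unadjusted p under 0.05 none was a member, and DESeq2 called no member. The gate held few cells per library, and the other 6 members had means of 0 to 13.8 CPM. In dendritic cells (274 cells, led by Xcr1 and Clec9a) none of 3 members was called, beside 0.0241% of genes, with Ccl4 at 143.7 and 178.4 CPM and Ccr2 at 453.7 and 449.9 CPM. The other 6 members were below the filter there. None of the 214 genes there with an unadjusted p under 0.05 was a member, and DESeq2 called no member.

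**Figure D5:**
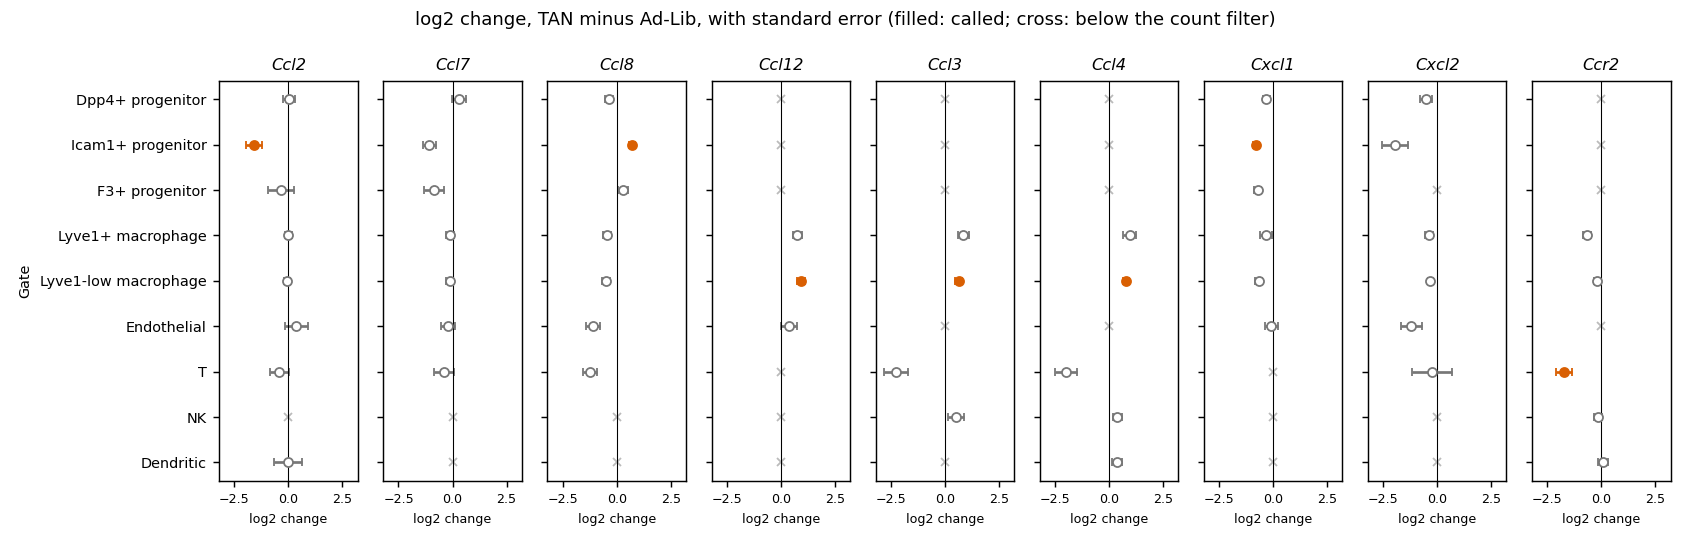
log2 change (TAN minus Ad-Lib) with SE of each gene (panels) in 9 gates (rows), with called changes filled and genes below the count filter shown as crosses at 0. Filled points are Ccl2 (-1.57), Ccl8 (0.71) and Cxcl1 (-0.80) in Icam1+ progenitors, Ccl12 (0.93), Ccl3 (0.64) and Ccl4 (0.78) in Lyve1-low macrophages, and Ccr2 (-1.73) in T cells.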

How the data were processed

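Single-cell suspensions of the inguinal stromal vascular fraction were sequenced as 8 libraries of 10x 3′ v3 chemistry. The authors deposited unnormalized UMI counts for 32285 genes per barcode. The labels' notes name Cell Ranger 3.0.2, Seurat, mm10 and GRCm38, whereas the file headers name cellranger 6.0.1. The annotation used for counting is not given in the sources used here. The lowest barcode total was 500 UMIs, so the deposited barcodes had been filtered.

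Cells with 700 to 30000 UMIs, 200 to 8000 genes and at most 10% mitochondrial UMIs, the study's limits, were kept. A cell entered a lineage gate when the mean log-normalized level of its markers was at least 0.25 and no other lineage reached 0.6 of it, which was the only treatment of doublets. Progenitors and macrophages were then divided by a margin of 0.3 and a Lyve1 score of 0.4, which left 1329 of 10128 progenitors unresolved and 4374 cells in no gate. These thresholds were set after seeing the data. A gate of monocyte markers (114 cells) was led by Cox6a2 and Siglech, was left unnamed and was not tested.

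Raw UMIs were summed per library and gate (at least 10 cells, at least 3 libraries per group) and tested with edgeR 4.0.16 (TMM, filterByExpr, quasi-likelihood, Benjamini-Hochberg over all genes of the gate). Differences between gates were tested with limma 3.58.1, and DESeq2 1.42.0 served as an alternative. Members below the filter and cell shares were compared with two-sided exact permutation tests over libraries, after thinning each cell to 2000 UMIs for the shares. Python 3.11.15 and R 4.3.3 were used. With simulated counts in the Icam1+ gate (10734 genes), 85% of 100 genes changed 2-fold and 95% of 100 changed 3-fold were called, and 9 of 189 calls were false. In the Lyve1-low gate (7596 genes) these shares were 75% and 90%, with 8 of 173 calls false, and in the T gate (8604 genes) 64% and 89%, with 11 of 164 false.

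All 9 members were named in every gate. From the lists (other chemokine ligands, chemokine receptors and decoys, NF-kB response genes, immediate early genes, naive and effector T cell genes), up to 3 called genes with the smallest adjusted p, or else the 2 highest, were eligible, and they are named for gates in which a member was called. For likeness, the 3 genes with the highest correlation were taken. One gene that this rule would name is not reported here. The members and lists were chosen with earlier results of these data known. Alternatives covered filters, gates, depth, tool, pseudocount and each library left out. Counting depth limits low levels, and 3 UMIs were taken as the floor.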

Additional observations from a re-analysis of the deposited data

Results flagged for a closer look

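In 9 of 102 groups of 4 libraries (8.824%) the highest or lowest library stood far from the others by Dixon's criterion, where chance gives about 1 in 20. No explanation was tested for any of them.

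For the ligands of Ccr2, Ccl7 in Dpp4+ progenitors was 74.69 CPM in TAN replicate 6, and 292.7 to 332.9 CPM in the other TAN libraries. Ad-Lib replicate 5 stood low for Ccl2 in Lyve1+ macrophages, with 966.7 CPM against 1502 to 1545 CPM. The same library stood low for Ccl7 in Lyve1-low macrophages, with 635.0 CPM against 1250 to 1320 CPM. Ccl12 in Lyve1+ macrophages was 484.6 CPM in Ad-Lib replicate 3, and 340.5 to 354.5 CPM in the other Ad-Lib libraries. In Lyve1-low macrophages Ccl12 was 920.9 CPM in TAN replicate 8, and 1418 to 1485 CPM in the other TAN libraries.

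Among the remaining genes, Cxcl2 in Icam1+ progenitors was 0.2745 CPM in TAN replicate 2, and 3.197 to 3.758 CPM in the other TAN libraries. In T cells Ccl4 was 203.0 CPM in TAN replicate 2 (others 38.06 to 60.09 CPM), Ccl7 was 7.226 CPM in the same library (others 3.725 to 3.98 CPM), and Cxcl2 was 66.86 CPM in TAN replicate 8 (others 0.7226 to 4.602 CPM).

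One difference between cell types was flagged by its own test. The TAN minus Ad-Lib change of Ccl8 in Icam1+ progenitors exceeded that in Dpp4+ progenitors by 1.123 on the log2(CPM + 1) scale (limma adjusted p = 0.00423).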

How the results depend on the processing

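No paired analysis was possible because the groups share no replicate number. No called change reversed its direction, but uncalled ones near 0 did change sign, among them Ccl2 in Dpp4+ (-0.15 to 0.27) and endothelial cells (-0.68 to 0.68) and Cxcl2 in T cells (-2.56 to 0.29) with a library left out, and Ccl8 in Lyve1-low cells with stricter gates (0.14, against -0.49). Of the single-gene results by setting, 878 stayed the same, meaning on the same side of the threshold or, for levels, within their spread. Another 46 passed the threshold, 39 lost it and 2 levels moved, and 188 of 278 counts stayed within 1.5 times. The cause of the changes was not tested. Depth limits the shallow gates: NK cells had 174 cells and 1404 genes tested.

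Without the count filter, 5 members were called in Icam1+, 2 in F3+, 4 in Lyve1+, 3 in endothelial, 4 in T and 1 in dendritic cells, and the called genes numbered 153 in Dpp4+, 263 in Icam1+, 131 in F3+, 146 in Lyve1+, 188 in Lyve1-low, 360 in endothelial, 646 in T, 36 in NK and 64 in dendritic cells. DESeq2 called 1 member in F3+ and 3 in T cells, and 38 genes in F3+, 346 in T, 0 in NK and 2 in dendritic cells. With stricter gates 1 member was called in Icam1+ and 1 in endothelial cells, with 22 genes in Lyve1-low and 0 in NK cells, and Cxcl1 in Icam1+ cells was at -0.54 (adjusted p = 0.0427), under 1.5-fold. Cells of 2000 to 20000 UMIs gave 5 members in Icam1+, 1 in endothelial and 4 in T cells, and 0 genes in dendritic cells. A mitochondrial limit of 20% gave 3 members in T cells. No minimum change gave 278 genes in Icam1+ and 455 in endothelial cells. T cells without and with naive genes gave 0 and 0 members, beside 7 and 15 genes called. A pseudocount of 10 CPM gave 2 members that differed between Icam1+ and Dpp4+. The Icam1+ list without Cd36, Fabp4 and Lpl, chosen after seeing the data, gave 31 genes in F3+.

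With each library left out in turn, the called genes ranged from 10 to 120 in Dpp4+, 107 to 181 in Icam1+, 1 to 29 in F3+, 7 to 42 in Lyve1+, 22 to 82 in Lyve1-low, 139 to 261 in endothelial, 2 (without TAN replicate 6) to 948 (without Ad-Lib replicate 3) in T, 0 to 3 in NK and 0 to 2 in dendritic cells. The called members ranged from 1 (without TAN replicate 2) to 5 (without Ad-Lib replicate 5) in Icam1+, 0 to 1 in F3+ (1 without Ad-Lib replicate 5), 0 to 1 in Lyve1+ (1 without TAN replicate 6 or 8), 1 to 3 in Lyve1-low (1 without Ad-Lib replicate 3 or TAN replicate 2 or 4) and 0 to 4 in T cells (4 without Ad-Lib replicate 3).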

Other observations

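Rare cells held several of these genes at levels not covered by the comparisons. In the mast cell gate (82 cells), Ccl2 stood at 5051 to 5948 CPM in the 2 Ad-Lib libraries with at least 10 cells and at 3545 to 4814 CPM in the 2 such TAN libraries. Cxcl2 was at 0 in those mast cells, and in the neutrophil gate (77 cells) it stood at 4766 to 6620 CPM in 2 Ad-Lib and 2388 to 4521 CPM in 2 TAN libraries. ILC2-marked cells (50 cells, no library with 10) held 144 UMIs of Ccr2 in Ad-Lib and 120 in TAN. They were 0.171% of Ad-Lib and 0.106% of TAN cells, so these totals are not levels per cell. Mural cells (851 cells) carried Cxcl1, with 144.7 to 507.7 CPM in Ad-Lib and 335.6 to 621.8 CPM in TAN. None of these gates was tested.

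Summed over all kept cells, an alternative chosen after seeing the data, Cxcl1 stood at 221.1 to 383.0 CPM in Ad-Lib and 78.8 to 180.6 CPM in TAN. Ccl8 stood at 237.5 to 360.8 and 92.4 to 215.5 CPM, and Cxcl2 at 219.3 to 297.7 and 92.2 to 208.8 CPM. Dpp4+ progenitors went from 13.5% to 8.69% of the cells and Lyve1+ macrophages from 9.95% to 4.996% (exact permutation p = 0.0286 for each). In such sums fewer cells of a type and less RNA per cell cannot be told apart.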
